A study of Gracilariopsis lemaneiformis with 12 samples.

Results

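The 104 sequences described here are the most abundant single assembled sequences of the red seaweed Gracilariopsis lemaneiformis whose level stayed within set limits across treatment and time. They were found among the 23287 sequences with IDs beginning with Unigene, out of 30780 assembled sequences in all. Unigene sequences were ranked by mean FPKM (fragment number scaled to sequence length and library size) over all 12 libraries, and the first 200 were kept. For each group G was taken as log2(mean FPKM + 1). A sequence was dropped if G differed by 0.3 or more between IAA and control at day 1 or day 3, or by 0.6 or more between day 3 and day 1 in controls or with IAA. The limits dropped 96 of the 200 and left 104. The members were thus chosen by their measured group means and overall mean FPKM, and their differences between groups are a description. Calls and intervals from a model of all sequences are printed for them beside the share called over all sequences, and are not tests of the members.

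The series asked how indole-3-acetic acid (IAA) acts on biomass and branching. It holds 4 groups of 3 libraries, all of strain 981 and all labelled as rhizoid tissue: IAA at 100 µM for 3 days, untreated controls at day 3, IAA at 100 µM for 1 day, and untreated controls at day 1. Because the design text mentions branches as well as rhizoids and may mean different tissue on each day, day and tissue cannot be told apart. Nothing in the labels states that the 3 libraries of a group came from separate cultures, so the spread between them may be technical.

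G. lemaneiformis is farmed for agar, a cell wall polysaccharide of red algae. In land plants IAA is the chief natural form of auxin, a hormone that controls cell elongation, branching and root formation. The most abundant transcripts of a plant or algal cell usually encode proteins of translation, photosynthesis and the cytoskeleton, and some of them serve as reference transcripts in expression work. The files used here hold IDs without gene names, annotations or bases, so the sequences are given by ID only, no gene list could be looked up, and the tissue label could not be checked against marker genes. In RNA from whole tissue, fewer cells of a type and less RNA per cell cannot be told apart.

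Summed FPKM per library lay between 291205 and 308835. Absolute depth is unknown. Relative depth, estimated from the smallest steps of 2050 low Unigene sequences, was 0.980 to 1.02 over the 12 libraries. Pearson's r across the 14065 sequences averaging 1 FPKM or more was 0.980 to 0.986 within groups and 0.945 to 0.974 between groups.

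Abundance among the members was uneven. Their mean FPKM over the 12 libraries ranged from 120.4 to 13015, with a median of 193. Unigene4290_All alone held 32.7% of the summed mean FPKM of the members, the first 5 held 42.8%, the first 10 held 51.5% and the first 50 held 79.5%. There were 12 members at 500 FPKM or more, 38 at 200 to 500 FPKM and 54 below 200 FPKM. The rule left 3 members among the first 10 Unigene ranks, 7 in ranks 11 to 20, 13 in ranks 21 to 50, 25 in ranks 51 to 100, 25 in ranks 101 to 150 and 31 in ranks 151 to 200. The last member, Unigene1240_All, stood at rank 200 with a mean of 120.4 FPKM. The next rank, just outside, held Unigene3324_All at 120.3 FPKM.

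**Figure D1:**
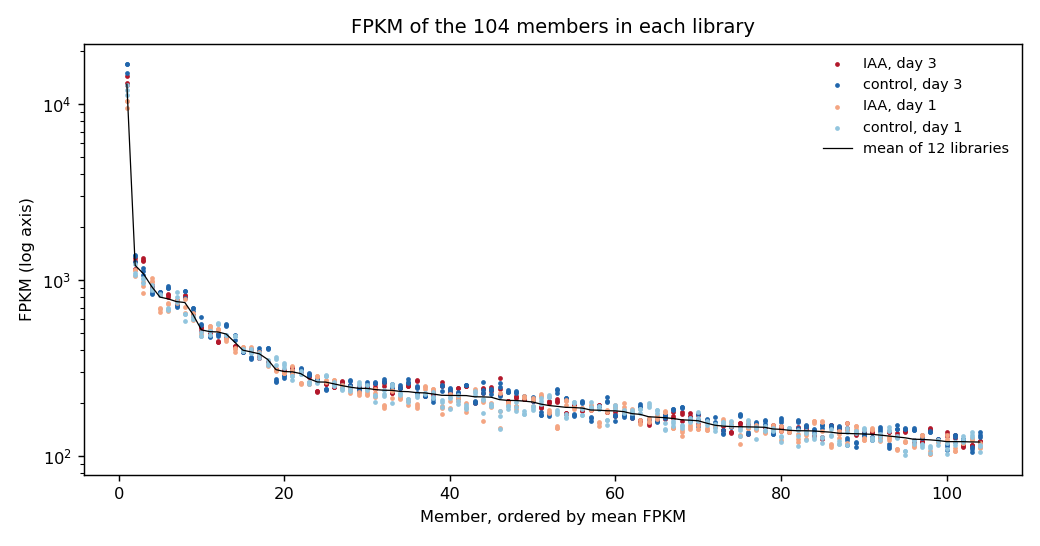
FPKM (log axis) of the 104 members, ordered by their mean over 12 libraries, with 1 point per library coloured by group and the mean as a line. Unigene4290_All at the left has a mean of 13015 FPKM, and the last member has 120.4 FPKM.

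Unigene4290_All, the most abundant sequence of the whole table in every library, had 14428, 13172 and 12903 FPKM with IAA at day 3, against 16928, 17036 and 15111 FPKM in day-3 controls. At day 1 it had 9544, 10388 and 10458 FPKM with IAA, against 11347, 12040 and 12830 FPKM in controls. The IAA libraries were below the control libraries on both days, and the day-3 libraries were above the day-1 libraries with and without IAA, with no overlap. Its IAA to control ratio was 0.825 at day 3 and 0.839 at day 1. Its day-3 to day-1 ratio was 1.33 with IAA and 1.35 in controls.

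Unigene31852_All, the second member, had 1162, 1338 and 1278 FPKM with IAA at day 3, against 1398, 1263 and 1372 FPKM in day-3 controls. The day-1 values were 1149, 1058 and 1143 FPKM with IAA, against 1244, 1071 and 1104 FPKM in controls. IAA and control libraries overlapped on both days, and day-3 libraries lay above day-1 libraries in both arms.

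Unigene4282_All had 1342, 1281 and 1303 FPKM with IAA at day 3, against 1180, 1129 and 1067 FPKM in day-3 controls. With IAA at day 1 it had 850.0, 923 and 974 FPKM, against 966, 1018 and 1034 FPKM in controls. IAA libraries were all above control libraries at day 3, while at day 1 the 2 groups overlapped.

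Unigene8309_All and Unigene6798_All complete the 5 most abundant members and had opposite day-1 differences. Unigene8309_All averaged 998 ± 30.2 FPKM with IAA and 907 ± 28.0 FPKM in controls at day 1 (SD, n = 3 each), and 920.4 ± 14.0 and 857 ± 24.96 FPKM at day 3. Unigene6798_All averaged 682 ± 15.8 FPKM with IAA and 827 ± 6.29 FPKM in controls at day 1, and 845 ± 17.3 and 854 ± 4.15 FPKM at day 3. The IAA libraries of Unigene8309_All were above its controls on both days, whereas those of Unigene6798_All were below its controls at day 1 and overlapped them at day 3.

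**Figure D2:**
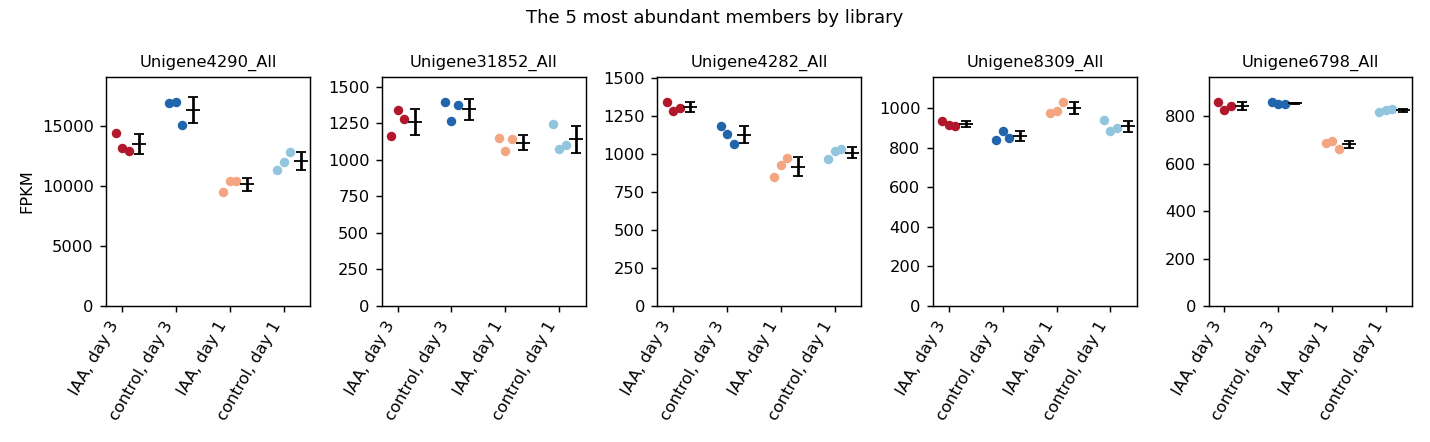
FPKM of the 5 most abundant members in each library, with 3 points per group and the mean ± SD (n = 3) as a black bar beside them; each vertical axis starts at 0. Unigene4290_All had 9544 to 10458 FPKM with IAA at day 1, its lowest group, and 15111 to 17036 FPKM in day-3 controls, its highest.

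The members differed in how flat they were. The range of G over the 4 groups had a median of 0.26 and was below 0.1 in 3 members and below 0.2 in 36. Unigene7437_All had the smallest range, 0.04. It had 125.8, 122.7 and 122.1 FPKM with IAA at day 3, against 125.0, 123.0 and 125.7 FPKM in day-3 controls. At day 1 it had 120.0, 122.5 and 124.0 FPKM with IAA, against 116.0, 122.3 and 124.0 FPKM in controls. All 4 groups overlapped.

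Unigene2524_All, with a range of 0.06, averaged 398 ± 5.12 FPKM with IAA and 394 ± 5.94 FPKM in controls at day 3, and 412 ± 10.97 and 399 ± 5.70 FPKM at day 1 (SD, n = 3 each). Unigene3342_All, with a range of 0.07, averaged 139 ± 2.04 FPKM with IAA and 139 ± 0.672 FPKM in controls at day 3, and 138 ± 2.29 and 145 ± 0.224 FPKM at day 1. Its day-1 controls had 145.2, 144.9 and 145.3 FPKM and lay above all its other libraries, so a small range of G did not mean overlapping groups.

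Over all 12 libraries the highest value of a member was a median of 1.26 times its lowest, from 1.06 in the steadiest to 1.93 in the most variable. This ratio was below 1.25 in 48 members and below 1.5 in 98, and reached 2 in none of the 104. Among the 96 dropped sequences its median was 1.72, and 24 were below 1.5. The coefficient of variation over the 12 libraries had a median of 7.75% in members and 19.6% in the dropped sequences. These gaps follow from the limits.

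Ranks in the whole table shifted even among these sequences. The best and worst rank of a member among all 30780 sequences over the libraries lay a median of 59.5 places apart, from 0 for Unigene4290_All to 163 places. The order of the 104 members by FPKM was alike across libraries, with Spearman's rho from 0.973 to 0.996 within groups and 0.889 to 0.971 between groups. These correlations are across sequences, which are not independent replicates.

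Most of the dropped sequences failed an IAA limit. That limit, 0.3, was narrower than the time limit of 0.6, so the counts do not compare the size of the 2 effects. Among the dropped sequences the median size of the difference was 0.37 for IAA at day 1 and 0.32 at day 3. For time it was 0.37 in controls and 0.36 with IAA. Of the 200 sequences 68 failed the day-1 limit for IAA, 51 the day-3 limit for IAA, 31 the time limit in controls and 23 the time limit with IAA, and 26 failed both IAA limits. A further 3 failed a time limit and neither IAA limit. Median-of-ratios scaling divides each library by its median ratio to the mean library. With it 68 failed the day-1 limit for IAA and 91 the day-3 limit for IAA. The time limit was failed by 85 in controls and 24 with IAA, so the balance between the limits also rests on the scaling. Just inside the IAA limits were Unigene5812_All, with a G change of 0.30 at day 1 (0.296), and Unigene4100_All, with -0.28 at day 3. Just outside were Unigene199_All at -0.30 (-0.3001) and Unigene3434_All at -0.32. For time the nearest inside were Unigene7609_All at 0.56 in controls and Unigene4282_All at 0.51 with IAA, and the nearest outside were Unigene8312_All at -0.61 and Unigene212_All at 0.65.

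**Figure D3:**
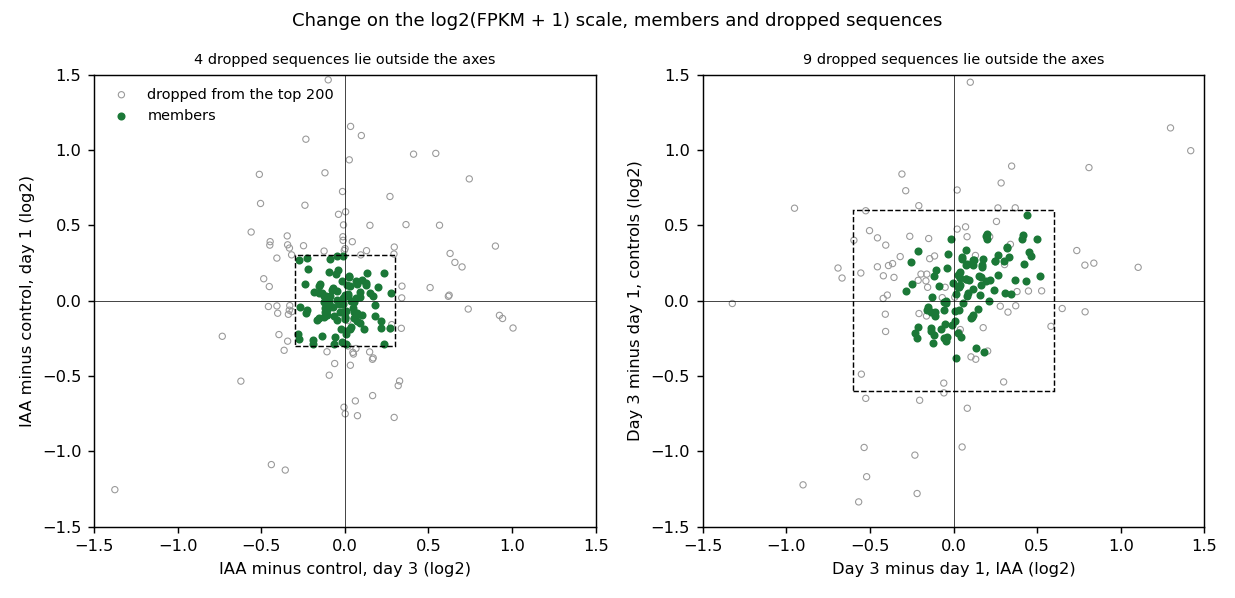
Differences on the log2(FPKM + 1) scale of members (filled) and dropped sequences of the top 200 (open), IAA minus control at day 3 against day 1 on the left and day 3 minus day 1 with IAA against controls on the right. The dashed boxes mark 0.3 and 0.6, and 4 and 9 dropped sequences lie beyond the axes at 1.5; the members sit inside the boxes by rule.

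At day 1 the differences between IAA and control among the members ran from -0.29 to 0.30 on the log2 scale, within the limits. A linear model over all 14065 sequences (limma, two-sided, Benjamini-Hochberg adjustment; an adjusted p under 0.05 is a call) called 21 members higher and 29 lower, 50 of 104. Over all sequences 13.9% were called, 5.25% higher and 8.7% lower. The rule used this comparison, so nothing is read from the count. The median difference was -0.02 in members and -0.06 over all sequences. The median standard error was 0.03 in members and 0.12 over all sequences.

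The largest day-1 differences among members were in Unigene5812_All and Unigene5935_All. Unigene5812_All had 218, 213 and 219 FPKM with IAA, against 181, 173 and 174 FPKM in controls, a difference of 0.30 ± 0.02 on the log2 scale (SE). Unigene5935_All had 155, 164 and 159 FPKM with IAA, against 195, 190.0 and 200.5 FPKM in controls, a difference of -0.29 ± 0.03. The groups of each did not overlap. With median-of-ratios scaling the differences were 0.36 in Unigene5812_All and -0.23 in Unigene5935_All. Groups did not overlap for 26 members with IAA higher and 35 with IAA lower, and for 29.3% of all sequences, 9.45% higher and 19.8% lower.

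At day 3 the model called 20 members higher with IAA and 31 lower, 51 of 104, where 38% of all sequences were called, 29.7% higher and 8.28% lower. Nothing is read from this count or the next ones, since the rule used these comparisons too. The median difference was -0.02 in members and 0.14 over all sequences. Unigene2434_All had 155, 142 and 145 FPKM with IAA, against 123, 126 and 115 FPKM in controls, a difference of 0.27 ± 0.10, which was 0.036 with median-of-ratios scaling. Unigene4100_All had 158, 159 and 161 FPKM with IAA, against 190.2, 193 and 198 FPKM in controls, a difference of -0.28 ± 0.03, which was -0.52 with that scaling. Groups did not overlap for 25 members with IAA higher and 42 with IAA lower, and for 51.6% of all sequences, 38.4% higher and 13.2% lower.

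The 2 IAA comparisons use separate libraries. The rule held both differences within 0.3 in members, so nothing is read from their relation. Across the 104 members Pearson's r was -0.03 and Spearman's rho -0.0029. The differences were positive on both days in 20 members, negative on both in 34 and of opposite sign in 50. Over all 14065 sequences r was 0.10 and rho -0.07, with 3221 positive on both days, 2983 negative on both and 7861 of differing sign. Calls fell on both days in 28 members, of which 13 had the same direction and 15 the opposite. Over all sequences 7.24% were called on both days, 3.83% in the same direction and 3.41% in the opposite one. Another 31 members were called on neither day, as were 55.3% of all sequences.

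The contrast of the IAA effect at day 3 minus that at day 1 called 24 members with a more positive effect at day 3 and 23 with a more negative one, where 32.3% of all sequences were called, 26.1% more positive and 6.26% more negative. The largest positive one was in Unigene4217_All. Unigene4217_All had 207, 200.1 and 204 FPKM with IAA at day 3, against 177, 173 and 170.2 FPKM in controls. At day 1 it had 179, 176 and 184 FPKM with IAA, against 223, 218 and 218 FPKM in controls. IAA libraries were thus all above controls at day 3 and all below them at day 1, a difference of effects of 0.52 ± 0.03 (SE). With median-of-ratios scaling it was 0.22.

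Unigene6803_All had the mirror pattern. It had 173, 175 and 176 FPKM with IAA at day 3, against 214, 214 and 208 FPKM in controls. Its day-1 values were 207, 208 and 194 FPKM with IAA, against 173, 166 and 165 FPKM in controls. The difference of effects was -0.55 ± 0.04, and -0.84 with median-of-ratios scaling.

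In controls 59 members were called higher at day 3 and 27 lower, 86 of 104, where 57.7% of all sequences were called, 11.9% higher and 45.8% lower. With IAA 40 were called higher at day 3 and 22 lower, where 26.4% were called, 11% higher and 15.4% lower. The median difference in controls was 0.11 in members and -0.24 over all sequences, and with IAA it was 0.06 and -0.06. Time had the wider limit in the rule. Groups did not overlap in controls for 59 members higher and 27 lower at day 3, and for 62.3% of all sequences, 13.8% higher and 48.5% lower. With IAA they did not overlap for 51 higher and 28 lower, and for 41.7% of all sequences, 15.9% higher and 25.8% lower.

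In controls Unigene7609_All had 260.1, 249 and 219 FPKM at day 3, against 144, 180 and 168 FPKM at day 1, a difference of 0.57 ± 0.15 (SE), which was 0.98 with median-of-ratios scaling. Unigene5826_All had 269, 273 and 265 FPKM at day 3, against 328, 357 and 367 FPKM at day 1, a difference of -0.38 ± 0.03, which turned to 0.031 with that scaling. With IAA the largest difference upward was that of Unigene4282_All, 0.52 ± 0.05, which was 0.63 with median-of-ratios scaling. Its values are given above. The largest downward was that of Unigene1530_All, which had 236, 233 and 231 FPKM at day 3, against 282, 287 and 285 FPKM at day 1, a difference of -0.29 ± 0.02, which was -0.17 with median-of-ratios scaling.

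The 2 time comparisons also use separate libraries, but in members the rule ties them together. The time change of G with IAA minus that in controls equals its IAA difference at day 3 minus that at day 1. The rule bounds both IAA differences more narrowly than the time changes. Part of the likeness of the time differences across members is thus set by the rule, and no independent agreement is read from it. Across the 104 members the time differences had Pearson's r of 0.52 and Spearman's rho of 0.53. They were positive in both comparisons in 55 members, negative in both in 23 and of opposite sign in 26. Over all sequences r was 0.47 and rho 0.44, and 7118 of 14065 were negative in both. The highest of the 4 group means was that of day-3 controls in 47 members (45.2%), and in 17% of all sequences. The lowest was that of day-1 IAA in 43 members (41.3%), and in 17.7% of all sequences. The rule used these group means, so nothing is read from the counts. Over all sequences the highest was most often the day-1 controls, in 45.2%, and the lowest the day-3 controls, in 52.9%. These orders are those of the deposited scale. With median-of-ratios scaling the median time difference in controls was 0.52 in members and 0.11 over all sequences, against 0.11 and -0.24.

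The 4 members called in none of the 5 comparisons were Unigene2524_All, Unigene5795_All, Unigene2250_All and Unigene7437_All, where 30.5% of all sequences were called in none. Since the rule used these comparisons, nothing is read from the count. A missed call does not show an unchanged level. Unigene5795_All had 202, 249 and 256 FPKM in day-1 controls, and its within-group standard deviation on the log2 scale, 0.105, was above the median of the members.

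The 95% intervals of the model describe the scatter of the libraries around each difference. Since the rule kept members by these differences, the intervals lean toward lying within the limits and do not bound a true difference at 95%. Their half-width was a median of 0.06 on the log2 scale among the members and ranged from 0.03 to 0.33. The interval lay wholly within 0.3 for 94 of 104 members for IAA at day 3 and for 87 at day 1. It lay within 0.6 for 102 members for time with IAA and for 103 in controls. For 81 members all 4 intervals lay within the limits, and for 28 with median-of-ratios scaling. Nothing is read from these counts.

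The spread between libraries of a group was not used by the rule. The within-group standard deviation of log2(FPKM + 1), pooled over the 4 groups, had a median of 0.0358 in members and 0.0416 in the dropped sequences. It was 0.0494 in the 134 cluster contigs of the same range of mean FPKM, 0.0381 in the next 200 Unigene ranks and 0.146 over all 14065 sequences. The quartiles were 0.0279 and 0.0521 in members and 0.0305 and 0.0579 in dropped sequences, so the sets overlapped widely. The sets differ in mean FPKM, whose part in the spread was not tested. The share of a member's variance over the 12 libraries that lay within groups was a median of 9.27%, against 26.5% over all sequences.

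The smallest spreads were those of Unigene30_All and Unigene6652_All, 0.0125 and 0.0135. Unigene30_All had 259, 260.0 and 257 FPKM with IAA at day 3, against 242, 239 and 242 FPKM in controls. On day 1 the values were 269, 272 and 265 FPKM with IAA, against 288, 286 and 286 FPKM in controls. Its 4 groups were fully separate, and Unigene6652_All likewise did not overlap in any of the 4 pairwise comparisons.

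The largest spreads were those of Unigene7609_All and Unigene5965_All, 0.213 and 0.145. Unigene7609_All had 144, 230.0 and 181 FPKM with IAA at day 1, and 144, 180 and 168 FPKM in day-1 controls. Unigene5965_All had 158, 209 and 202 FPKM with IAA at day 1, against 176, 212 and 209 FPKM in day-1 controls. In both sequences replicate 1 was the lowest library of both day-1 groups.

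**Figure D4:**
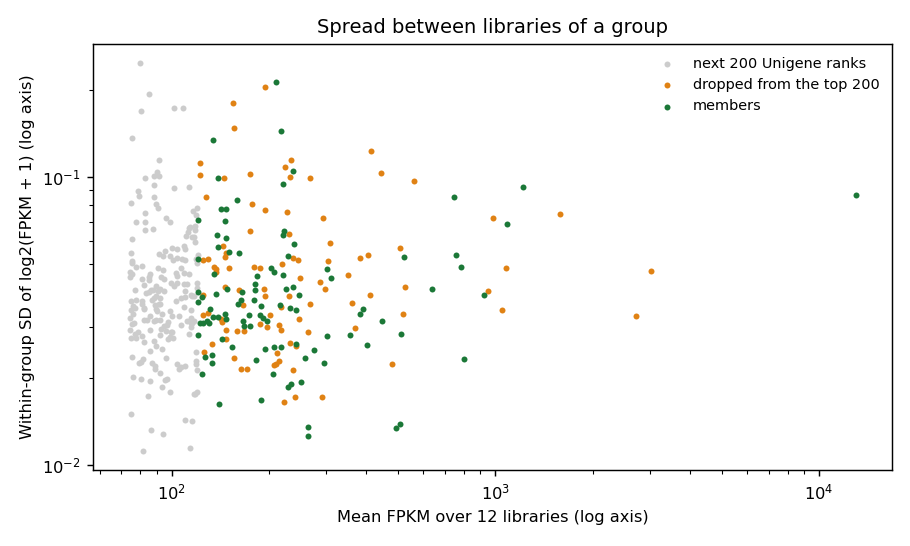
Within-group standard deviation of log2(FPKM + 1), pooled over 4 groups of 3 libraries, against mean FPKM (both axes log) for members, dropped sequences and the next 200 Unigene ranks. The 3 sets overlap, with medians of 0.0358, 0.0416 and 0.0381.

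Deviations from the group means were partly shared between members. They were not scaled to each member's spread, so members of large spread weigh most in what follows. A single principal component of these deviations carried 60.5% of the members' within-group variance, with 73 members on one side and 31 on the other. On it replicate 1 had the lowest score of its group at day 1, -0.62 with IAA and -0.58 in controls, while the other day-1 libraries lay at 0.11 to 0.51. At day 3 the scores ran from -0.19 to 0.29 with IAA and from -0.27 to 0.19 in controls. The same component computed from the dropped sequences alone put replicate 1 at -0.71 with IAA and -0.54 in controls at day 1, and from the cluster contigs at -0.49 and -0.91. The sign of a component is arbitrary, and each was turned so that replicate 1 of the day-1 controls was negative. The sign of the day-1 IAA library was not set in this way. With these signs the 2 libraries were lowest in all 3 sets. Their relative depth, 1.00 and 1.02, compared with 0.980 to 1.01 in the other libraries. The day-1 control library had the highest relative depth of the 12. The 2 libraries also had the highest median-of-ratios size factors of their groups, 1.110 with IAA and 1.178 in controls. Their median deviations from the group mean were 0.013 and 0.023 over all tested sequences, and -0.019 and -0.014 in members. The part of depth or scaling in these scores was not tested. The median within-group standard deviation of the members was 0.0242 with IAA and 0.0274 in controls at day 3, and 0.0328 with IAA and 0.0432 in controls at day 1.

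The first principal component of the members over all 12 libraries separated the days. The rule held IAA differences within 0.3 and time differences within 0.6, so nothing is read from the order of the components. In the members the first principal component carried 63.1% of the variation. Its scores were 0.57 to 0.81 for IAA and 1.15 to 1.35 for controls at day 3. At day 1 they were -1.499 to -0.84 for IAA and -1.12 to -0.65 for controls. The second carried 16.4% and separated day-1 IAA libraries, at 0.55 to 0.80, from day-1 controls, at -0.79 to -0.68. The third carried 11.6% and separated day-3 IAA, at 0.51 to 0.76, from day-3 controls, at -0.68 to -0.39. In the dropped sequences the first component carried 56.9% and also separated the days. Their second carried 27.7% and separated IAA from control libraries on both days.

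The sequences of the top 200 whose values were most like those of Unigene4290_All over the 12 libraries were Unigene6729_All and Unigene139_All, both members, with Pearson's r of 0.968 and 0.964 on the log2 scale. The third, Unigene4147_All, with r of 0.956, had been dropped. The 12 points are 3 libraries of each of 4 groups, so these values mainly state that the group means had the same order. Unigene6729_All averaged 171 ± 7.07 FPKM with IAA and 185 ± 1.71 FPKM in controls at day 3, and 144 ± 0.132 and 154 ± 4.77 FPKM at day 1 (SD, n = 3 each).

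Together the members took 13.3 ± 0.249% of the summed FPKM with IAA and 15.0 ± 0.336% in controls at day 3, and 11.9 ± 0.247% with IAA and 12.6 ± 0.305% in controls at day 1 (SD, n = 3 each). Unigene4290_All accounted for 4.40 ± 0.240% and 5.57 ± 0.329% of it at day 3, and for 3.36 ± 0.152% and 3.99 ± 0.235% at day 1, IAA given before control on each day. Without it the other 103 members took 8.94 ± 0.0105% with IAA and 9.48 ± 0.0129% in controls at day 3, and 8.55 ± 0.101% with IAA and 8.64 ± 0.0798% in controls at day 1. Most of the difference between groups in the members' total was thus a difference in Unigene4290_All.

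**Figure D5:**
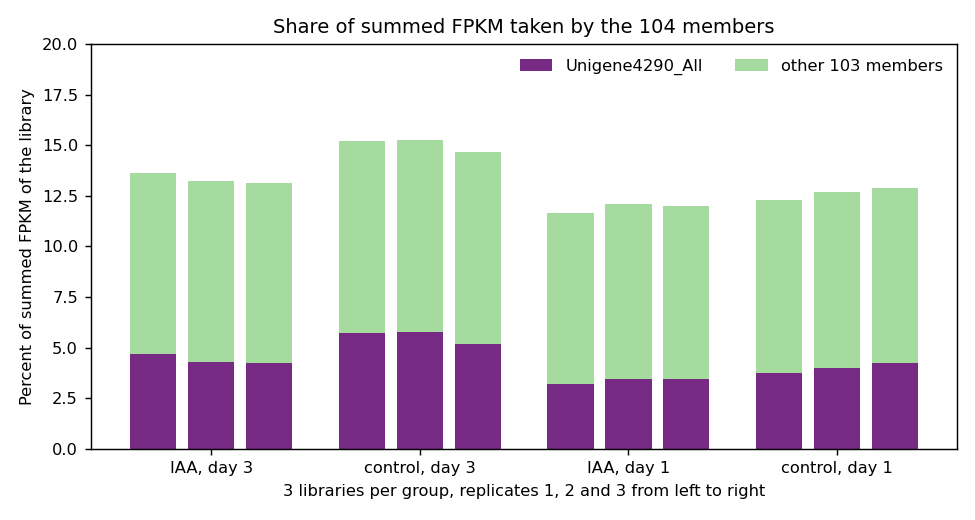
Percent of the summed FPKM of each library taken by Unigene4290_All and by the other 103 members, 3 libraries per group. The bars are highest in day-3 controls, at 14.7 to 15.2%, and lowest with IAA at day 1, at 11.6 to 12.1%.

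How steady the members were depended on the scaling. Median-of-ratios size factors, computed from all sequences above 0 in every library, were 1.005 to 1.011 with IAA and 0.842 to 0.867 in controls at day 3, and 1.078 to 1.110 with IAA and 1.116 to 1.178 in controls at day 1. On that scale the median of all sequences moved by 0.05 for IAA at day 1, -0.19 for IAA at day 3, -0.24 for the difference of effects, 0.35 for time in controls and 0.09 for time with IAA. The medians of the members moved by 0.06, -0.24, -0.30, 0.41 and 0.11 in that order. Calls among members became 26 higher and 13 lower for IAA at day 1, 0 higher and 89 lower for IAA at day 3, and 2 and 77 for the difference of effects. On the same scale 11.2%, 50.4% and 38.6% of all sequences were called in these comparisons. For time they became 102 higher and 0 lower in controls and 62 higher and 4 lower with IAA, where 65.4% and 25.6% of all sequences were called. The rule applied to that scale left 57 of 200 sequences, 48 of them among the 104. Scaling to a common sum left 100, of which 97 were among the 104, with 12 higher and 50 lower for IAA at day 3 and 17 and 39 for the difference of effects.

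The authors' deposited tables of changed sequences list 836 at day 1 and 2307 at day 3, with log2 ratios of at least 1 in size. They hold 0 of the 104 members on either day, which the limits fix. Of the 96 dropped sequences the authors' deposited tables hold 9 at day 1, with 6 higher and 3 lower with IAA, and 5 at day 3, with 4 higher and 1 lower.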

How the data were processed

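Ground tissue gave RNA through a plant column kit, and library preparation was the standard Illumina one, per the labels' protocols. Bowtie2 2.2.5 is named in the submitters' processing notes, with no role. The sources used here give no assembler, quantifier or test of the authors. The authors deposited FPKM values with 2 decimals, per the file headers. They also deposited 2 tables with log2 ratios, p-values and q-values for sequences they called changed, per the file headers.

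Values were tested as log2(FPKM + 1). Sequences averaging under 1 FPKM over all libraries were left out, which kept 14065 sequences and all 104 members. The limma package 3.58.1 in R 4.3.3 fitted 4 group means, with the variance prior following abundance. Its two-sided p-values received a Benjamini-Hochberg adjustment across the 14065 sequences. The scripts were tested on simulated data. Depth is unknown because FPKM values carry no read totals. The rule for IDs named in the text took the 5 most abundant members, the 3 with the smallest range of G, the 2 smallest and 2 largest within-group spreads, and the largest called difference in each direction per comparison. It also took the neighbours of each limit, the last rank and the next, and the 3 sequences most like the first member. Unigene5795_All and Unigene2250_All were named after their values were seen. The principal components and the pairs of comparisons were chosen after seeing the data. The members and rules were chosen with earlier results of these data known. Alternatives were another pseudocount, no filter, other scalings, a replicate block, other numbers of top sequences, group medians and leaving out each library.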

Additional observations from a re-analysis of the deposited data

Results flagged for a closer look

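The effect of IAA differed between the days by limma's contrast of effects (adjusted p under 0.05) for 47 of the 104 members, where 32.3% of all sequences were called. The rule bounds both effects, so these are descriptions. Of the 23 members named by rule 12 were among them, and each difference is that of the IAA effect at day 3 minus that at day 1 on the log2 scale. It was 0.52 in Unigene4217_All, 0.40 in Unigene5826_All, 0.36 in Unigene4282_All, 0.26 in Unigene6798_All, 0.22 in Unigene5935_All, 0.19 in Unigene30_All and 0.076 in Unigene3342_All. It was -0.55 in Unigene6803_All, -0.35 in Unigene1530_All, -0.34 in Unigene5812_All, -0.16 in Unigene1240_All and -0.15 in Unigene6652_All.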

How the results depend on the processing

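Under median-of-ratios scaling 89 members were called for IAA at day 3 and 79 for the difference of effects, against 51 and 47 on the deposited scale. It left 57 sequences within the rule and 28 members with all intervals within the limits, gave a median within-group spread of 0.0516, and turned the time difference of Unigene5826_All in controls to 0.031. Taking the top 100 or the top 400 in place of the top 200 gave 48 and 249 sequences. A pseudocount of 0.1 FPKM, no filter and a common sum kept each total of called members within 1.5 times that reported, although with a common sum the split at day 3 became 12 higher and 50 lower, against 20 and 31, and that of the difference of effects 17 and 39, against 24 and 23. The replicate numbers are shared between groups, but deviations of same-numbered libraries had r of -0.06 to 0.06 over all tested sequences. Over the members r ran from -0.59 to 0.66 for same-numbered and from -0.69 to 0.62 for other pairs of libraries. The deviations of the 3 libraries of a group cancel out, so these ranges cannot show whether the numbers are pairs. The main model did not use the numbers as pairs. With the replicate block 44, 51, 41, 84 and 60 members were called for IAA at day 1, IAA at day 3, the difference of effects, time in controls and time with IAA, against 50, 51, 47, 86 and 62 without it. Leaving out each library gave 40 to 52, 43 to 54, 40 to 47, 74 to 88 and 52 to 66 calls in that order, and 100 to 104 sequences within the rule. With 3 libraries per group and no read totals, differences below about the median half-width of 0.06 on the log2 scale could not be resolved for a typical member. That width leaves out the choice of scaling, so larger differences are not thereby resolved. Median-of-ratios scaling moved the members' median by 0.06 for IAA at day 1, the smallest shift, and by 0.41 for time in controls, the largest.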
